A study of Mus musculus with 30 samples.

Results

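The response of primary mouse hepatocytes to GW3965 was described across all genes, from 4 of the 30 libraries of a study of ligands of the liver X receptors. The 2 GW3965 libraries came from hepatocytes given the ligand at 1 µM, and the 2 vehicle libraries from hepatocytes given DMSO or ethanol. Both groups were kept in Hepatozyme medium with 10% serum. They were moved to lipid-deficient serum with 50 µM mevalonate and 10 µM mevastatin, an inhibitor of sterol synthesis, 24 h before treatment, and harvested 18 to 20 h after it. The other hepatocyte groups, in the same medium with 2 libraries each, received T0901317, desmosterol, DMHCA or MePipHCA, and thioglycollate-elicited macrophages, kept in another medium, received the same agents in 3 libraries each. The labels give no strain, sex or age. They also leave unstated if the 2 libraries of a group are separate cultures or animals, so p-values measure the spread between these libraries only, which may be technical.

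Liver X receptors are nuclear receptors that bind oxidised sterols and sterol intermediates and act as heterodimers with retinoid X receptors on paired DNA repeats. LXR-alpha (Nr1h3) is abundant in liver and macrophages, and LXR-beta (Nr1h2) is found in most cells. Their classical targets export cholesterol from cells, remodel phospholipids and, through the transcription factor SREBP-1c, raise fatty acid synthesis in liver. GW3965 and T0901317 are synthetic, non-steroidal agonists of both receptors.

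The GW3965 libraries held 14478782 and 17772284 counts, against 12854290 and 6627812 counts in the vehicle libraries, so low genes are measured least well in vehicle replicate 2. All 12 hepatocyte markers were abundant enough to test, and their summed level was 45060 and 46070 CPM (counts scaled to a common library size) with GW3965 against 46200 and 40890 CPM with vehicle. Markers of B cells, T and NK cells, neutrophils and mesothelial cells were too low to test in every case. Markers of macrophages and Kupffer cells, the resident macrophages of liver, were present at low level and are given beside the genes they touch. Cholangiocyte markers summed to 379 and 437 CPM with GW3965 against 368 and 481 CPM with vehicle. Endothelial markers summed to 82.2 and 85.3 CPM against 72.0 and 77.1 CPM, and stellate cell and fibroblast markers to 4.74 and 4.75 CPM against 7.00 and 4.08 CPM. The other 8 hepatocyte libraries entered the fit to estimate the spread. Of these, T0901317 replicate 2 and desmosterol replicate 1 lay far from the rest on the first and second principal components, and without them 57 of the 63 genes called against vehicle were still called.

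With GW3965, 48 genes rose and 15 fell among 13176 tested, at an adjusted p below 0.05 in edgeR's quasi-likelihood test with Benjamini-Hochberg adjustment. The called share was 0.478% of all tested genes, with 0.364% up and 0.114% down. Genes of sterol export and fatty acid synthesis led the rise, with Scd1, Abca1, Srebf1, Fasn, Lpcat3 and Mid1ip1 giving the lowest adjusted p-values of higher genes together with Acsl5. Most changes were small: 14 genes rose and 2 fell by at least 2-fold, 18 of the higher and 8 of the lower genes differed by less than 1.5-fold, and the median absolute log2 fold change of the called genes was 0.65. The median over all tested genes was 0.0011 on the log2 scale. The 2 GW3965 values lay wholly above the 2 vehicle values in all 48 higher genes and wholly below them in all 15 lower genes. That separation was common by itself, at 19.6% of tested genes up and 19.2% down, so it is not read as a result. The number of calls depended on single libraries: 28 genes (25 up, 3 down) were called without GW3965 replicate 1, 41 (27 up) without GW3965 replicate 2 and 47 (31 up) without vehicle replicate 2. A fit of the 4 libraries alone called 107 genes, among them all 63.

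**Figure D1:**
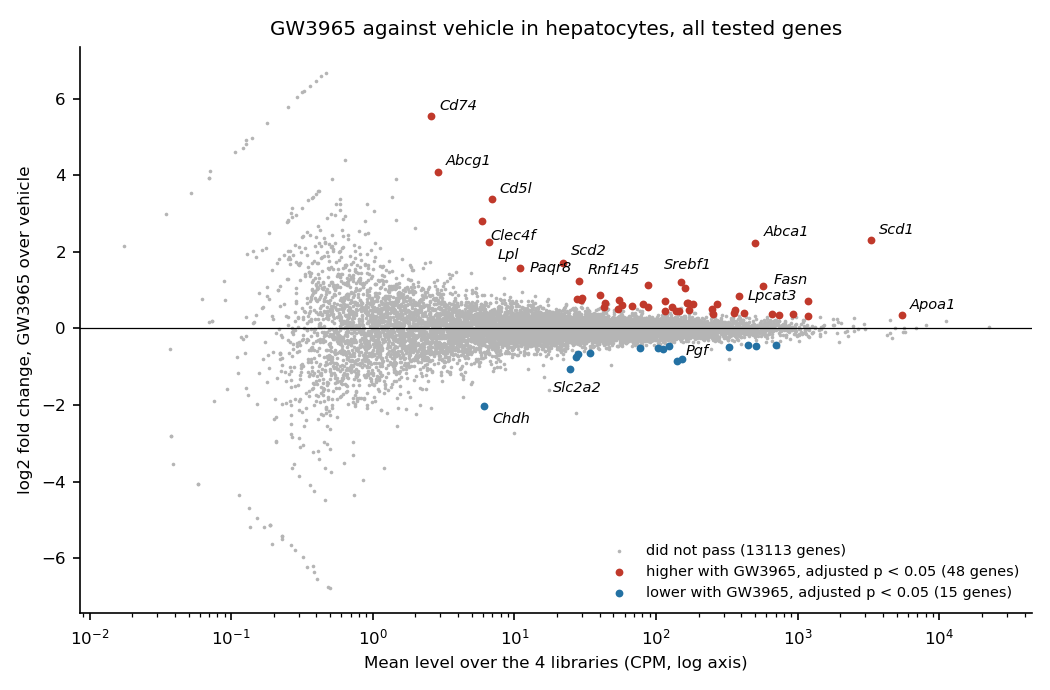
Each point is 1 tested gene, placed by its mean level over the 4 libraries (CPM, log axis) and its log2 fold change of GW3965 over vehicle. The 48 higher genes are red and the 15 lower genes are blue; Scd1, at 5385 and 5486 CPM with GW3965, stands out for both level and change, while Cd74, Abcg1 and Cd5l have larger fold changes at a few CPM.

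The promoters of 4 of the higher lipid genes shared a pattern of letters, and they are shown because the genes moved together. The searched motif was the direct repeat with a spacer of 4 bases that LXR and its partner are known to bind (DR4, AGGTCA repeated on one strand, up to 3 mismatches in the repeats, either strand searched) in the 250 bases before each RefSeq gene start on GRCm38.p6. Such a match is frequent: 18.5% of 32851 promoters held one, so a match by itself says little. The matches of Abca1, Fasn, Srebf1, Acsl3 and Rnf145 are written on the motif's own strand, with the half-sites in capitals and the spacer in lower case:
Abca1: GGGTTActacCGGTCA
Fasn: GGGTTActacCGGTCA
Srebf1: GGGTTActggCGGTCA
Acsl3: AGGTTActatGGGTCA
Rnf145: GGGTTActacAGTTCA

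The matches of Abca1 and Fasn were identical. The letters GGTTACTNNNGGTCA, common to the first 4 of these and chosen after the matches were seen, occurred in 6 of 32851 promoters (0.0183%), of 5 genes. Of those 5 genes 4 were tested, and they were Abca1, Acsl3, Fasn and Srebf1. Since the pattern was read from called genes, this count is a description without a test. The 250 upstream bases of 3 of them follow, 5′ to 3′ on the strand of the gene, with matches in capitals. The Abca1 window is chr4:53159896-53160145 on the minus strand and also holds the E-box CACGTG, found in 6.02% of promoters. The Fasn window is chr11:120824548-120824797, minus strand, with a second match in capitals to the sterol element bound by SREBPs (up to 2 mismatches, found in 20.0% of promoters). The Srebf1 window is chr11:60210472-60210721, minus strand, before the innermost of its 3 annotated starts.
Abca1: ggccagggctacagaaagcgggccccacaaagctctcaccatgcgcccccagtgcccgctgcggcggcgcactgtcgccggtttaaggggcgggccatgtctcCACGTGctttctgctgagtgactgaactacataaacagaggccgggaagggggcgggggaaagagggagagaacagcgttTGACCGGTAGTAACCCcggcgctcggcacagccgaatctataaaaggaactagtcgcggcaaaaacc
Fasn: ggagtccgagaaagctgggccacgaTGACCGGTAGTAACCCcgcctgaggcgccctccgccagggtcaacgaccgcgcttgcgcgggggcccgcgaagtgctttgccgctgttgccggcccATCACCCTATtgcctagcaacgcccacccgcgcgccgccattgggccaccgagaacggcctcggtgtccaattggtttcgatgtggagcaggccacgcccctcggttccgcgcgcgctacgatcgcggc
Srebf1: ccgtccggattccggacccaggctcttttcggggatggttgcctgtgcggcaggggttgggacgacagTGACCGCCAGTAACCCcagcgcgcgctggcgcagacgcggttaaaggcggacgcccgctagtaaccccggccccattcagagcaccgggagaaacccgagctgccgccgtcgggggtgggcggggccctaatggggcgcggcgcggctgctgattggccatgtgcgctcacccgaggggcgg

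The match lay 67 to 52 bases before the start in Abca1, 225 to 210 in Fasn, 182 to 167 in Srebf1 and 112 to 97 in Acsl3. Of 13176 tested genes 9940 had a promoter with known bases, as did 33 of 48 higher genes (68.8%) and 11 of 15 lower genes (73.3%). A DR4 match in any promoter was held by 15 of these 33 higher genes (45.5%) and 2 of these 11 lower genes (18.2%). The share was 18.6% among the 9940 tested genes. These shares leave out part of the called genes and carry no test. Scd1, Scd2, Abcg1 and Lpl are among the higher genes with no entry.

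Among 19 LXR targets in sterol efflux and transport, 4 rose and 0 fell, against 0.478% called over all genes, and the list's median log2 fold change was 0.11 against 0.0011. This list and those below were chosen with earlier results of these data known, so their shares of calls are descriptions only. Abca1, which loads cholesterol and phospholipid onto apolipoprotein A-I at the cell surface, had 809 and 846 CPM with GW3965 against 190.0 and 158 CPM with vehicle. The groups lie far apart, and the log2 fold change was 2.24 ± 0.09 (SE, n = 2 each; edgeR adjusted p = 2.04e-16). Lpcat3, which puts polyunsaturated acyl chains into phospholipids, had 487 and 509 CPM with GW3965 against 272 and 284 CPM with vehicle. Its log2 fold change was 0.84 ± 0.08 (edgeR adjusted p = 9.05e-08). Per length, Abca1 stood at 64.4 and 67.1 RPKM with GW3965 against 15.2 and 12.1 RPKM with vehicle, below Lpcat3 in every library, which had 159 and 166 RPKM against 89.2 and 88.9 RPKM.

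Abcg1, the transporter that passes cholesterol to formed HDL, was nearly silent without ligand. It had 90 and 81 counts with GW3965 against 4 and 2 counts with vehicle, or 6.28 and 4.58 CPM against 0.311 and 0.302 CPM. The ratio of the summed counts was 17.2 (exact 95% counting interval 7.75 to 47.6), and the fitted log2 fold change was 4.10 ± 0.69 (edgeR adjusted p = 0.00134). Even with ligand it reached only 0.879 and 0.640 RPKM, far below Abca1 per length. Lpl, the lipase that frees fatty acids from lipoprotein triglyceride and is scarce in adult hepatocytes, had 11.7 and 10.4 CPM with GW3965 against 2.80 and 1.66 CPM with vehicle. Its log2 fold change was 2.25 ± 0.38 (edgeR adjusted p = 0.00148). DESeq2 gave no adjusted p for either gene, and every other alternative called both, with adjusted p-values up to 0.0468 for Abcg1 and 0.0452 for Lpl.

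The remaining 15 LXR targets did not pass. Mylip, a ubiquitin ligase, had 2.72 and 2.32 CPM with GW3965 against 0.778 and 0.605 CPM with vehicle. Its groups were apart, but the log2 fold change of 1.82 ± 0.84 had an edgeR adjusted p of 0.547. The call depends on the fit: the joint fit with the macrophage libraries gave 1.80 ± 0.37 and an edgeR adjusted p of 0.0037. Abcg5 and Abcg8, whose products pair to send sterols into bile, had log2 fold changes of -0.56 ± 0.40 and 0.42 ± 0.47. Abcg5 lay at 3.63 and 4.81 CPM with GW3965 against 5.68 and 6.95 CPM with vehicle, and Abcg8 at 4.95 and 4.19 CPM against 4.59 and 1.97 CPM. Pltp, which transfers phospholipid between lipoproteins, had 9.98 and 5.49 CPM against 6.84 and 6.05 CPM, so its groups overlap. Apoe, at 2429 and 2466 CPM with GW3965 against 2618 and 2542 CPM with vehicle, gave a log2 fold change of -0.08 ± 0.07.

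The receptors themselves gave no call. Nr1h3 had 29.2 and 26.1 CPM with GW3965 against 29.7 and 36.4 CPM with vehicle, a log2 fold change of -0.25 ± 0.15 (edgeR adjusted p = 0.716). Nr1h2 had 66.3 and 65.7 CPM against 69.4 and 74.7 CPM, and its log2 fold change was -0.12 ± 0.12. None of the 25 nuclear receptors and partners tested was called, against 0.478% over all genes, and their median log2 fold change was -0.10.

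The list of SREBP-1c, ChREBP and fatty acid synthesis genes held the highest share of calls among the 19 pathway lists. Since the lists were chosen with earlier results known, this rank is a description only. Of 25 members 7 rose and 0 fell (28% against 0.478% over all genes), 18 had both GW3965 values above both vehicle values (19.6% of all tested genes did), and the median log2 fold change was 0.32. Srebf1, which encodes SREBP-1, had 200 and 219 CPM with GW3965 against 96.2 and 82.8 CPM with vehicle. The log2 fold change was 1.22 ± 0.10 (edgeR adjusted p = 9.89e-09). The counts do not separate its 1a and 1c transcripts. Scd1, the desaturase that makes oleate from stearate, had 5385 and 5486 CPM with GW3965 against 1112 and 1093 CPM with vehicle, and it carried the lowest adjusted p of all genes (log2 fold change 2.30 ± 0.08; edgeR adjusted p = 1.15e-18). At 906 and 920 RPKM against 188 and 176 RPKM, it was also high per length. Scd2, the isoform prominent in brain and in early life, stood far below it in CPM at 32.8 and 34.3 CPM against 9.95 and 10.6 CPM (log2 fold change 1.71 ± 0.20; edgeR adjusted p = 4.58e-06).

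Fasn, the fatty acid synthase, had 777 and 788 CPM with GW3965 against 381 and 345 CPM with vehicle. The log2 fold change was 1.11 ± 0.08 (edgeR adjusted p = 1.6e-10). Mid1ip1, a partner of acetyl-CoA carboxylase, had 218 and 216 CPM against 110.0 and 99.0 CPM (1.05 ± 0.11 on the log2 scale). Fads2, a desaturase of polyunsaturated fatty acids, rose by 0.66 ± 0.09 and Acss2, which makes acetyl-CoA from acetate, by 0.61 ± 0.12. The enzymes between citrate and malonyl-CoA fell short of the threshold. Acly, the ATP citrate lyase, had 659 and 688 CPM with GW3965 against 539 and 556 CPM with vehicle, a log2 fold change of 0.30 ± 0.08 (edgeR adjusted p = 0.0896). Acaca and Acacb, the acetyl-CoA carboxylases, had log2 fold changes of 0.54 ± 0.14 (edgeR adjusted p = 0.114) and 0.66 ± 0.16 (0.061). All 3 had both GW3965 values above both vehicle values, as did 19.6% of all tested genes, so this separation is not read as a result. Elovl5, Elovl6, Fads1 and Me1 had log2 fold changes between 0.03 and 0.11. Mlxipl, which encodes ChREBP, had -0.17 ± 0.11. Genes not fixed by the naming rule, such as Acly, the carboxylases and these 5, were chosen after their values were seen.

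**Figure D2:**
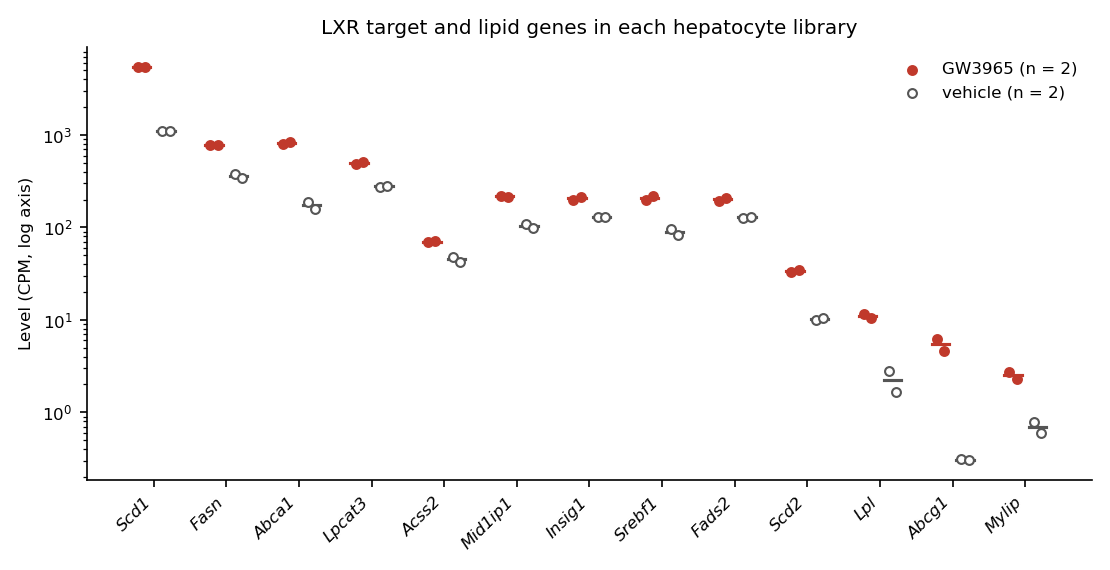
Points are CPM of single libraries on a log axis, filled for GW3965 and open for vehicle, and bars are means of the 2 libraries. The values of GW3965 lie above those of vehicle for every gene shown. Mylip is the one of these 13 that did not pass the test. The others were called, and every called higher gene is separated in this way, so the separation is not read as a result.

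Genes that activate, esterify and store fatty acids rose in part. Acsl5 and Acsl3 join fatty acids to coenzyme A. Acsl5 had 1587 and 1383 CPM with GW3965 against 910 and 888 CPM with vehicle (log2 fold change 0.72 ± 0.08; edgeR adjusted p = 1.21e-06). Acsl3 had 72.0 and 66.0 CPM against 42.5 and 39.1 CPM (0.75 ± 0.14; edgeR adjusted p = 0.00317). Among 28 tested genes of triglyceride synthesis and lipid droplets, 2 rose and 0 fell (7.14% called, against 0.478% over all genes), and the median log2 fold change was 0.07. These were Gpam, the mitochondrial acyltransferase that opens glycerolipid synthesis, at 0.45 ± 0.10, and Lpin1, a phosphatidate phosphatase, at 0.56 ± 0.13. Gpam was not called when any 1 of the 4 libraries was left out. Lpin1 was not called without either GW3965 replicate or without vehicle replicate 2. Over the alternatives the log2 fold change ran from 0.40 to 0.51 for Gpam and from 0.46 to 0.69 for Lpin1. Rpia, of the pentose phosphate pathway, rose by 0.79 ± 0.16. Apoa1, the main protein of HDL and itself a hepatocyte marker, was the only one of 22 lipoprotein genes called (4.55%, against 0.478% over all genes). It had 6135 and 6044 CPM with GW3965 against 4903 and 4691 CPM with vehicle, or 0.34 ± 0.08 on the log2 scale (edgeR adjusted p = 0.0333), and was not called when any 1 of the 4 libraries was left out.

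Few genes of sterol synthesis passed the test. Of 20 cholesterol synthesis enzymes 1 rose and 0 fell (5% called, against 0.478% over all genes), and the median log2 fold change was 0.09. That gene was Pmvk, a kinase of the mevalonate pathway, with 50.1 and 52.3 CPM against 35.8 and 33.4 CPM (0.56 ± 0.13; edgeR adjusted p = 0.0436). It was called in 6 of 12 alternative settings and in none that left out a library. Hmgcs1 gave -0.11 ± 0.08, and Srebf2, which encodes the sterol-regulated SREBP-2, gave 0.01 ± 0.09.

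Among 12 tested genes of other SREBP-2 targets and SREBP regulators 2 rose and 0 fell (16.7% called, against 0.478% over all genes), with a median log2 fold change of 0.06. Insig1, a regulator of the SREBPs, rose. It holds the SREBP escort in the endoplasmic reticulum and had 200 and 211 CPM with GW3965 against 129 and 130.1 CPM with vehicle (0.67 ± 0.09; edgeR adjusted p = 1.2e-04). Rnf145, a ubiquitin ligase of sterol regulation with one of the printed promoter matches, had 38.9 and 42.3 CPM with GW3965 against 18.0 and 15.7 CPM with vehicle (1.25 ± 0.16; edgeR adjusted p = 1.92e-05). Paqr8, a membrane progestin receptor, had 16.6 and 16.3 CPM against 6.14 and 4.53 CPM (1.59 ± 0.27; edgeR adjusted p = 0.00134).

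Bile acid genes gave 1 call among 21 tested (4.76%, against 0.478% over all genes), with a median log2 fold change of 0.00. It was Abcc2, a canalicular exporter of conjugates, with 360 and 296 CPM with GW3965 against 211 and 208 CPM with vehicle (0.64 ± 0.10; edgeR adjusted p = 2.91e-04). Cyp7a1, the rate-limiting enzyme of bile acid synthesis and a known LXR target in rodent liver, was too low to test, with 0 and 6 counts with GW3965 against 3 and 0 counts with vehicle. A difference was not detectable at this depth.

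Lower genes were fewer and mostly changed little. Chdh, choline dehydrogenase, had 1.74 and 3.11 CPM with GW3965 against 13.8 and 5.90 CPM with vehicle (log2 fold change -2.03 ± 0.48; edgeR adjusted p = 0.0436). Its vehicle libraries differ more than 2-fold from each other. Slc2a2, the hepatic glucose transporter GLUT2, had 12.1 and 19.8 CPM against 41.7 and 24.5 CPM (-1.07 ± 0.24; edgeR adjusted p = 0.0271), again with unequal vehicle libraries. Neither was called without GW3965 replicate 1 or without vehicle replicate 1, and DESeq2 gave an adjusted p of 0.17 for Slc2a2 and none for Chdh. Chdh was also not called without GW3965 replicate 2, nor with the counts thinned to the smallest library. Its log2 fold change ran from -2.53 to -1.26 over the alternatives. Slc2a2 was the only one of 31 glucose metabolism genes called (3.23%, against 0.478% over all genes), and the list's median log2 fold change was -0.08. Across the other hepatocyte groups Slc2a2 ranged widely, with 52.3 and 37.0 CPM under desmosterol and 11.7 and 17.2 CPM under DMHCA.

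Pgf, a growth factor of the VEGF family, had 81.7 and 119 CPM with GW3965 against 164 and 202 CPM with vehicle (-0.86 ± 0.14; edgeR adjusted p = 7.78e-04). Lox, which crosslinks collagen, had 94.4 and 128 CPM against 189.6 and 201 CPM (-0.81 ± 0.13; edgeR adjusted p = 6.5e-04). GW3965 replicate 1 was the lowest of the 4 in both, and neither was called without it (edgeR adjusted p = 0.0843 and 0.0756). Tsc22d2 had 276 and 273 CPM with GW3965 against 384 and 378 CPM with vehicle (-0.47 ± 0.08), and it was the only lower gene called in all 12 alternatives. Glud1, the mitochondrial glutamate dehydrogenase, had 572 and 624 CPM against 822 and 800.1 CPM (-0.44 ± 0.08). Cdo1, which opens cysteine breakdown, fell by 0.43 ± 0.08 on the log2 scale, and Fga, the fibrinogen alpha chain, by 0.45 ± 0.10. Fga was the only one of 40 plasma protein genes called (2.5%, against 0.478% over all genes). Of 30 tested PXR and CAR targets and other xenobiotic enzymes 0 rose and 2 fell (6.67% called, against 0.478% over all genes), with a median of -0.18. These were Cyp2c70, which makes muricholic acids in mice, at -0.52 ± 0.11, and the sulfotransferase Sult1d1, at -0.54 ± 0.10. Cyp2c70 was not called when any 1 of the 4 libraries was left out, nor was Sult1d1 without GW3965 replicate 1. Cyp3a11, a main PXR target, had 82.3 and 97.4 CPM with GW3965 against 114 and 122 CPM with vehicle and was not called (edgeR adjusted p = 0.127). Tmem238, Snrpb2, Shroom1, Fam8a1 and Thoc2 completed the lower genes, with log2 fold changes between -0.74 and -0.44.

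The remaining lists gave 0 or 1 call each. With 0.478% of all genes called, 0 calls in lists of this size is near that share and is not read as a result. None was called among 36 genes of PPAR-alpha and fatty acid oxidation, 17 hepatocyte transcription factors, 30 acute phase genes, 22 genes of ER and amino acid stress and 19 of fibrosis, and their medians lay between -0.12 and 0.05. The 22 interferon genes also gave 0 calls, with a median of 0.24. Both GW3965 values lay above both vehicle values in 11 of them, against 19.6% of all tested genes, and both lay below in 13 of the 30 xenobiotic genes and 11 of the 31 glucose metabolism genes, against 19.2%. These counts carry no test. Osgin1 (0.38 ± 0.09) was the only call of 15 NRF2 genes (6.67%, against 0.478% over all genes). Ccnd1, which encodes cyclin D1 (0.51 ± 0.12), was the only call of 24 cell cycle genes (4.17%). Neither Osgin1 nor Ccnd1 was called when any 1 of the 4 libraries was left out. Of all 63 called genes, 24 belonged to any pathway list. The share of all tested genes in a list was not counted, and the lists were chosen with earlier results known. This number is therefore not read as a result.

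**Figure D3:**
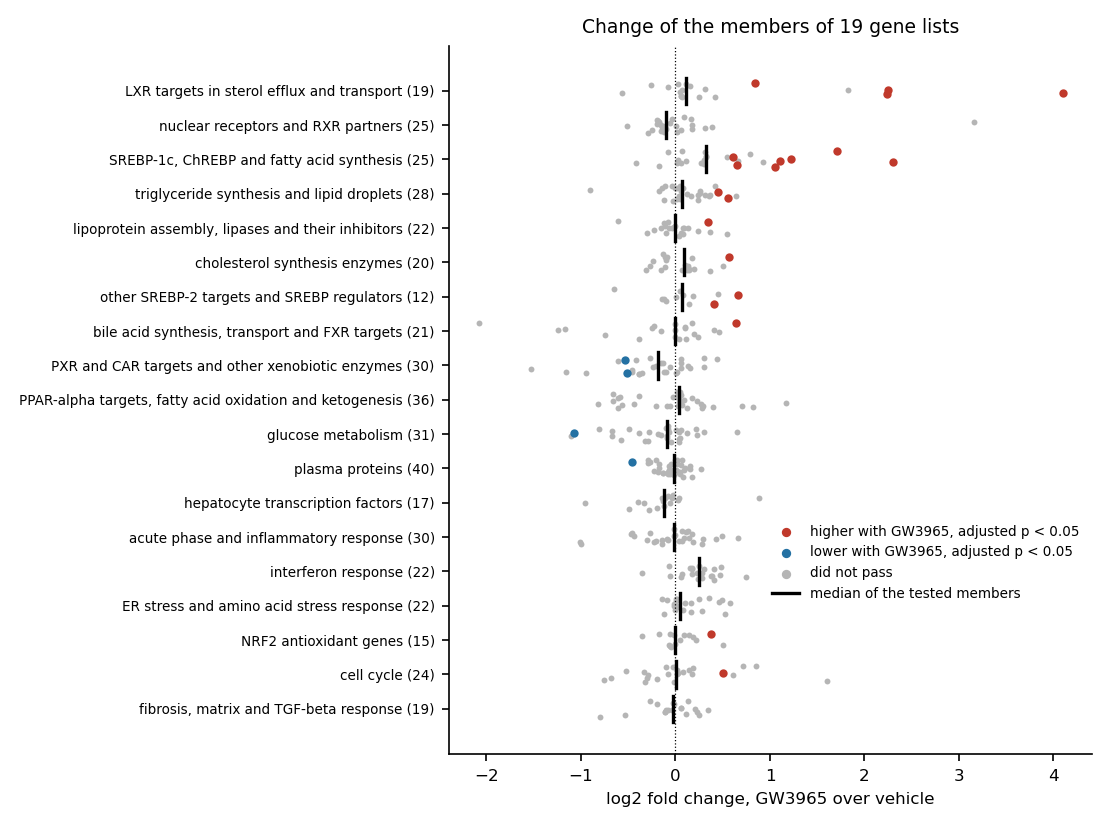
Each point is a tested member of a gene list, placed by its log2 fold change of GW3965 over vehicle, with called genes in colour and the list's median as a black bar. The number of tested members stands in brackets. The fatty acid synthesis list (7 of 25), the LXR target list (4 of 19) and the list of other SREBP-2 targets (2 of 12) hold the highest shares of calls. The lists were chosen with earlier results of these data known.

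Among 12 tested markers of macrophages and Kupffer cells, all but Cd68 at low levels, 2 rose and 0 fell, against 0.364% up and 0.114% down over all genes. Cd5l, a scavenger protein of tissue macrophages and a known LXR target there, had 14.5 and 10.8 CPM with GW3965 against 1.40 and 0.907 CPM with vehicle (log2 fold change 3.38 ± 0.45; edgeR adjusted p = 4.65e-05). Clec4f, a lectin of mouse Kupffer cells, had 13.3 and 7.75 CPM against 2.10 and 0.605 CPM (2.81 ± 0.47; edgeR adjusted p = 0.00134). It was not called without GW3965 replicate 1 (edgeR adjusted p = 0.0564), and its log2 fold change was 2.32 without vehicle replicate 2 and 4.10 without vehicle replicate 1. Cd74, the invariant chain of MHC class II and outside the marker list, had 90 and 69 counts with GW3965 against 2 and 0 counts with vehicle. The ratio of the summed counts was 48.0 (exact 95% counting interval 13.1 to 400.0), and 0 counts in vehicle replicate 2 allow up to 0.453 CPM. Its edgeR adjusted p was 0.00512, and it was not called without GW3965 replicate 1, vehicle replicate 1 or vehicle replicate 2. Outside the GW3965 libraries Cd74 had at most 10 counts, so it passed the filter on low counts only through the GW3965 group. That p-value is therefore no independent support for a rise. H2-Aa and H2-Eb1, chains of MHC class II chosen after their values were seen, had 22 and 12 counts and 20 and 25 counts with GW3965 against 2 and 0 counts and 5 and 0 counts with vehicle. H2-Eb1 was not called (edgeR adjusted p = 0.586) and H2-Aa was too low to test. H2-Ab1, another such chain, had 36 and 44 counts against 33 and 5 counts. The summed level of 5 dendritic cell markers, cells that also carry class II, was 4.74 and 8.21 CPM with GW3965 against 5.06 and 3.17 CPM with vehicle, with Flt3 and Siglech at 0 in all 4 libraries. The part of such cells was not tested. Counting intervals cover counting error only.

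Among all 12 hepatocyte libraries, both GW3965 libraries held the highest values of these 3 genes. Cd5l had 8.57 and 4.38 CPM with T0901317, and Clec4f had 6.25 and 3.29 CPM. In Cd74 the T0901317 libraries had 0.702 and 0.821 CPM. Desmosterol, DMHCA and MePipHCA libraries had at most 3.68 CPM of Cd5l, 4.12 CPM of Clec4f and 0.437 CPM of Cd74.

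Over the whole marker list of macrophages and Kupffer cells the median log2 fold change was 0.22, and 10 of 12 tested members did not pass. Csf1r, the receptor for the macrophage growth factor, had 8.30 and 6.28 CPM with GW3965 against 2.96 and 2.27 CPM with vehicle (1.45 ± 0.47; edgeR adjusted p = 0.253), and C1qa and C1qc had log2 fold changes of 1.24 ± 0.53 and 1.09 ± 0.53. C1qb had 75 and 70 counts with GW3965 against 46 and 24 counts with vehicle, whose replicate 2 is the least deep library. None of these genes was called. Marco had 11.3 and 8.43 CPM against 16.4 and 14.1 CPM, and Lyz2 had 6.28 and 5.43 CPM against 16.3 and 3.78 CPM. Adgre1, which encodes F4/80, had 2.51 and 1.92 CPM against 2.95 and 2.12 CPM, Cd163 had 5.16 and 2.72 CPM against 5.91 and 3.78 CPM, and Vsig4 had 2.58 and 1.07 CPM against 1.24 and 2.27 CPM, so the groups of these 3 overlap. Timd4, a marker of resident Kupffer cells, had 22 and 9 counts with GW3965 and was at 0 in both vehicle libraries. The list's summed level overlapped, at 350 and 269 CPM with GW3965 against 284 and 272 CPM with vehicle, most of it from Cd68, which had 267 and 212 CPM against 227 and 234 CPM. In such bulk libraries more macrophages and more RNA of these genes per macrophage cannot be told apart. The part of macrophages in the rise of Cd5l, Clec4f, Cd74, Lpl and Abcg1, all below 15 CPM, was not tested.

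Lgals3, which encodes galectin-3 and is high in macrophages, had 131 and 112 CPM with GW3965 against 64.6 and 44.1 CPM with vehicle (1.14 ± 0.15; edgeR adjusted p = 4.65e-05). With T0901317 it had a mean of 143 CPM, and no library of desmosterol, DMHCA or MePipHCA reached the GW3965 values. The other genes outside the lists that rose by at least 0.7 on the log2 scale were Slc4a11 (0.87 ± 0.19), B4galt7 (0.76 ± 0.16), Maged2 (0.74 ± 0.15) and Slc7a2 (0.71 ± 0.13), besides Acsl3, Acsl5 and Rpia. Slc4a11 is a membrane transporter, B4galt7 adds a galactose in the linker of proteoglycans and Slc7a2 carries cationic amino acids. Apol9a and H2-Q10, which also rose, belong to families of near-identical copies, so their counts are uncertain. Exons of 13 called genes overlap exons on the opposite strand, among them Srebf1, Lpcat3, Mid1ip1, Acsl5 and Chdh, and the strand used in counting is not given in the sources used here.

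**Figure D4:**
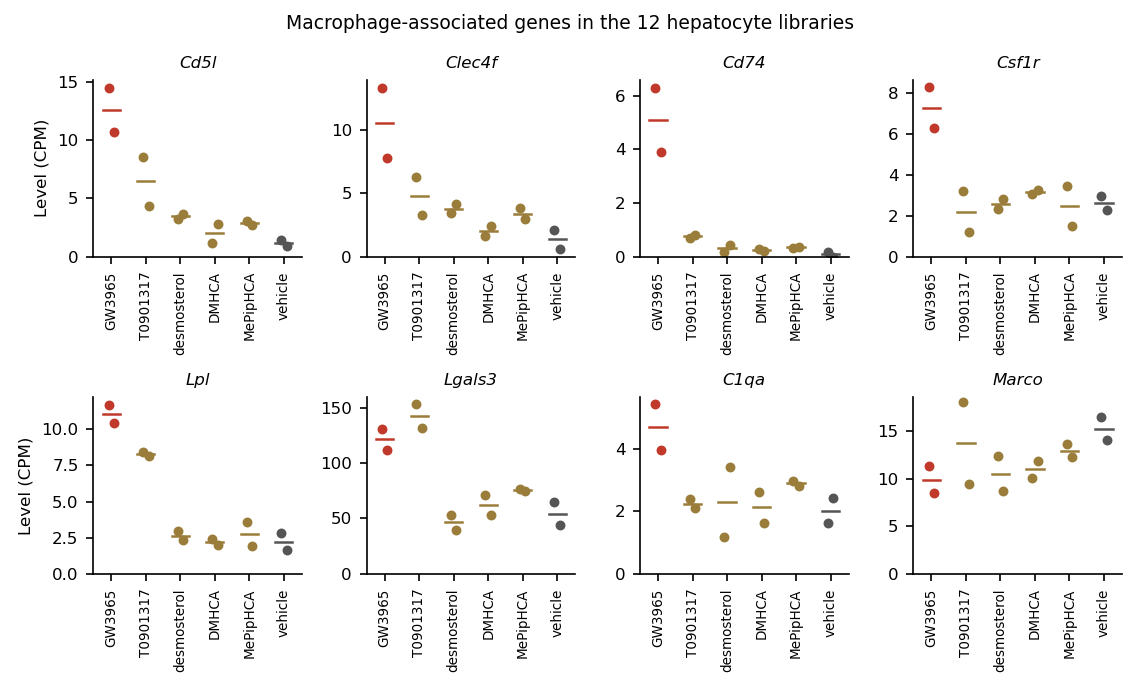
Points are CPM of single hepatocyte libraries, 2 per group, and bars are group means, with GW3965 in red at the left and vehicle in grey at the right. Cd5l, Clec4f, Cd74, Csf1r and C1qa are highest in the GW3965 libraries, Lpl and Lgals3 are high with both GW3965 and T0901317, and Marco is lowest on average with GW3965.

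The direct contrast of GW3965 with T0901317, both at 1 µM, asked whether the 2 synthetic agonists differed in the same cells. No gene was called among 13176 (0%) by edgeR or by DESeq2, and 667 genes (5.06%) had an unadjusted edgeR p below 0.05. The lowest adjusted p was 0.612, for Fbln2. For the 48 genes higher with GW3965 than with vehicle, the log2 difference between GW3965 and T0901317 ran from -0.57 to 2.73 with a median of 0.02, and for 43 of them the 95% interval lay within 1 log2 unit of equality. Of these 48 genes, chosen on the same GW3965 libraries, 8 had an unadjusted edgeR p below 0.05. Scd1 had 5385 and 5486 CPM with GW3965 against 5480 and 6348 CPM with T0901317, a difference of -0.12 (95% interval -0.27 to 0.03). Abca1 had 809 and 846 CPM with GW3965 against 856 and 996 CPM with T0901317, a difference of -0.16 (-0.34 to 0.02). Fasn differed by 0.02 (-0.14 to 0.18), Srebf1 by -0.05 (-0.26 to 0.15) and Lpcat3 by 0.03 (-0.13 to 0.19).

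Some low genes left room for a difference between the agonists. Abcg1 had 6.28 and 4.58 CPM with GW3965 against 7.45 and 6.30 CPM with T0901317, and its interval of -1.34 to 0.66 is wide. The Cd74 difference was 2.73 (1.14 to 4.32), that of Clec4f 1.12 (0.30 to 1.95), that of Cd5l 0.95 (0.20 to 1.70) and that of Chdh -1.35 (-2.33 to -0.37). These intervals are not corrected for the number of genes, and their edgeR adjusted p-values were all 0.925. Thbs1, which encodes thrombospondin-1, had the lowest difference of the higher genes, at 81.2 CPM with GW3965 against 121 CPM with T0901317 on average (-0.57; edgeR adjusted p = 0.925).

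The same agonist was then compared between cell types, in 1 fit over all 30 libraries joined by gene symbol. The response to GW3965, on the log2 scale, was higher in hepatocytes than in macrophages for 210 genes (1.53%) and lower for 216 (1.58%), together 426 of 13700 (3.11%). Cell type goes with the medium and with the date in the library names, so these cannot be told apart. In macrophages analysed alone, 1527 of 11544 genes (13.2%) were called, with 3 libraries a group. Several classical targets responded less in hepatocytes. Abca1 had a log2 fold change of 2.26 ± 0.08 in hepatocytes against 4.30 ± 0.07 in macrophages, a difference of -2.04 ± 0.10 (edgeR adjusted p = 5.52e-19). Its vehicle levels were of the same order, at 147 ± 19.9 CPM in hepatocytes and 175 ± 13.4 CPM in macrophages (SD, n = 2 and 3), in the scaling of the joint fit.

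Scd1 had 2.32 ± 0.08 in hepatocytes against 4.28 ± 0.08 in macrophages, from vehicle levels that differ widely: 928 ± 17.7 CPM in hepatocytes and 25.2 ± 1.96 CPM in macrophages. Fasn had 1.12 ± 0.08 against 2.60 ± 0.07 and Srebf1 1.23 ± 0.09 against 2.58 ± 0.08. Scd2, Acsl3 and Lpcat3 also responded less in hepatocytes, with differences of -1.98 ± 0.17, -1.31 ± 0.16 and -0.97 ± 0.11. Pltp had 0.22 ± 0.21 in hepatocytes against 2.82 ± 0.09 in macrophages (edgeR adjusted p = 1.87e-10). Mylip had 1.80 ± 0.37 against 3.56 ± 0.10 (edgeR adjusted p = 0.0366). For Abcg1 the difference was 1.24 ± 0.47 and did not pass (edgeR adjusted p = 0.175), with 4.63 ± 1.05 CPM in GW3965 hepatocytes and 1979 ± 44.5 CPM in GW3965 macrophages. Rnf145, at 1.26 ± 0.11 against 1.03 ± 0.08, did not pass either (edgeR adjusted p = 0.469).

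Of the 48 genes higher in hepatocytes, 42 were tested in macrophages alone, and there 24 rose, 1 fell and 17 did not pass. Over all genes tested in macrophages, 13.2% were called in either direction. In the test of the difference, 15 of the 48 responded more in hepatocytes, 7 less and 26 did not pass, against 1.53% more and 1.58% less over all genes. The 48 were chosen on the same hepatocyte libraries, which favours a larger response there, so this split is a description only. The gene that fell in macrophages was Thbs1, with 0.62 ± 0.14 in hepatocytes against -0.79 ± 0.12 in macrophages (edgeR adjusted p of the difference 7.57e-07). Thbs1 was not called in hepatocytes without GW3965 replicate 2, without either vehicle replicate, or without T0901317 replicate 2 and desmosterol replicate 1. Its hepatocyte log2 fold change ran from 0.38 to 0.78 over the alternatives. Lgals3 had 1.14 ± 0.13 against -0.03 ± 0.09, at 6325 ± 181 CPM in GW3965 macrophages. Lpl had 2.21 ± 0.21 against 1.35 ± 0.07 (edgeR adjusted p = 0.0259), and Cd74 5.44 ± 0.52 against 0.05 ± 0.09, where Cd74 stood at 131 ± 16.6 CPM in GW3965 macrophages and 4.35 ± 1.45 CPM in GW3965 hepatocytes. The joint fit takes 1 spread per gene over both cell types, and for such low hepatocyte genes its SE was smaller than in the fit of hepatocytes alone: 0.21 against 0.38 for Lpl, 0.37 against 0.84 for Mylip, 0.35 against 0.69 for Abcg1 and 0.52 against 1.04 for Cd74. The calls of a difference for Lpl, Mylip and Cd74 used these smaller errors and were not tested with the larger ones. Cd5l rose in both, 3.35 ± 0.30 against 2.13 ± 0.11, with an edgeR adjusted p of 0.0572 for the difference. Of the 15 lower genes 7 were tested in macrophages alone, and Cdo1 was the 1 that fell there too.

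**Figure D5:**
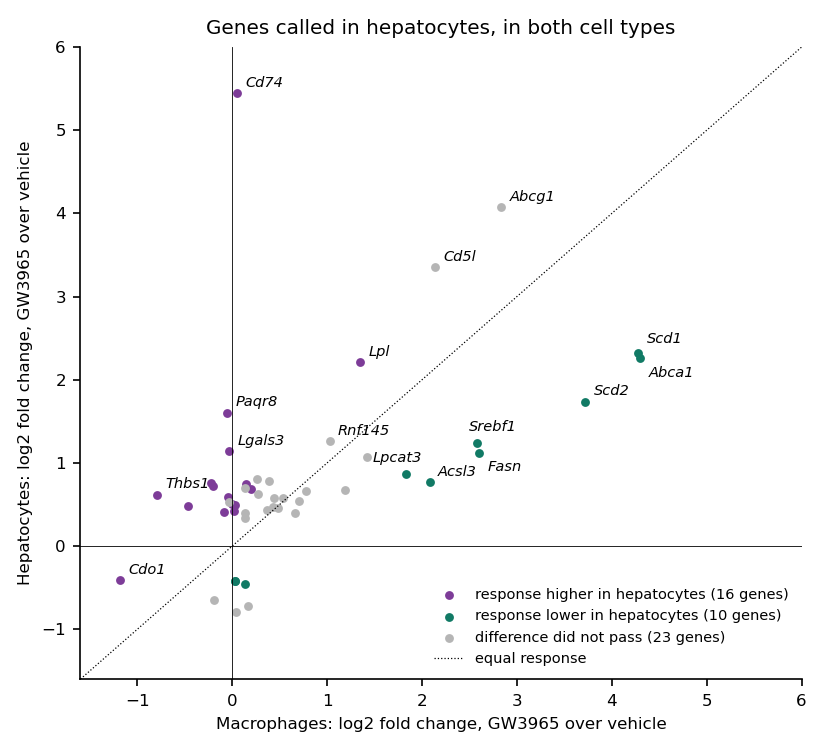
Each of 49 points is a gene called in hepatocytes and tested in macrophages, placed by its log2 fold change of GW3965 over vehicle in macrophages (x axis) and hepatocytes (y axis), with the dotted line at equal response. Purple marks 16 genes whose response was higher in hepatocytes and green 10 whose response was lower; Abca1, Scd1, Scd2, Fasn and Srebf1 lie far below the line.

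The genes at the ends of the difference between cell types rest on few counts in hepatocytes. The lowest were macrophage genes such as Trem2 and Mmp12, with no or almost no counts in the GW3965 hepatocytes. Mmp12 averaged 0.0299 ± 0.0422 CPM in GW3965 hepatocytes and 1.51 ± 2.14 CPM in vehicle hepatocytes (SD, n = 2 each). Trem2 was at 0 CPM in GW3965 hepatocytes and averaged 0.79 ± 1.12 CPM in vehicle hepatocytes. In both, and in Mamdc2, Slamf7, Cdkn1c and Cnrip1, the vehicle level comes from 1 library. These differences are therefore not read as a fall with GW3965. Without vehicle replicate 1 the number of genes with a different response was 260 (128 up, 132 down), and without GW3965 replicate 2 the number lower in hepatocytes was 140. At the other end Myo18b and Nfam1 were at 0 in both vehicle hepatocyte libraries. In all, 37 of the 426 genes had a mean below 1 CPM in both hepatocyte groups. The share of all 13700 genes at that level was not counted. Of the 426 genes, 26 were also called in hepatocytes against vehicle, where 0.478% of all tested genes were called. The same hepatocyte libraries enter both tests, so this overlap is not read as a result.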

How the data were processed

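Polyadenylated RNA was sequenced from 30 dUTP-marked libraries, per the labels' protocols. The submitters' processing notes name STAR, HOMER and the build mm10. The deposited tables hold raw counts over the exons of 1 transcript per gene, not pooled, and the same genes as RPKM, per the file headers. RPKM served for levels between genes only: for genes over 500 counts it deviated from counts per length by at most 0.0234%, and for 3200 genes it lists another transcript.

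Counts of the 12 hepatocyte libraries (24453 genes) were fitted together, without a replicate term, with edgeR 4.0.16 in R 4.3.3 (filterByExpr, TMM, quasi-likelihood test, Benjamini-Hochberg, threshold 0.05; biological coefficient of variation 0.106). CPM were scaled with TMM factors. The cell types were compared by an interaction in 1 fit of 23703 shared symbols. The pipeline was tested on simulated data. Members and lists were chosen with earlier results of these data known. Named were 14 fixed lipid genes (2 are not reported here), up to 6 called members per list with the largest change, and outside the lists the 12 higher and 12 lower called genes with the largest change, no overlap and a mean of at least 1 CPM. Only 11 lower genes qualified. Replicates of a group differed beyond counting noise (chi-square per degree of freedom 7.37 for GW3965 and 5.77 for vehicle). Promoters were searched over 250 upstream bases. Alternatives were DESeq2 1.42.0, other scalings, filters and samples.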

Additional observations from a re-analysis of the deposited data

Results flagged for a closer look

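The response to GW3965 differed between hepatocytes and macrophages by the interaction test for 426 genes (3.11% of 13700), and for 28 of the genes named or called in hepatocytes. The called ones were chosen on the same hepatocyte libraries that enter this test. Values are the log2 response in hepatocytes minus that in macrophages, and cell type goes with medium and date.

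Lower responses in hepatocytes were measured for the LXR targets Pltp (-2.60), Abca1 (-2.04), Mylip (-1.77) and Lpcat3 (-0.97). The lipogenic genes Scd2 (-1.98), Scd1 (-1.96), Fasn (-1.48), Srebf1 (-1.35) and Acsl3 (-1.31) went the same way, as did Tsc22d2 (-0.59), Glud1 (-0.45) and Thoc2 (-0.45), which fell in hepatocytes and were not called in macrophages.

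Higher responses in hepatocytes were measured for Cd74 (5.40), Paqr8 (1.66), Thbs1 (1.41), Lgals3 (1.17), Maged2 (0.98), Dusp10 (0.95), Slc7a2 (0.93), Lpl (0.86) and Cdo1 (0.78). Smaller differences of the same sign were found for Pik3ap1 (0.63), Acsl5 (0.60), Vwa5a (0.51), Rac1 (0.49), Insig1 (0.49), Plk2 (0.46) and Epg5 (0.40). Cdo1 fell in both cell types and by less in hepatocytes. Cd74, Mylip and Lpl are low in hepatocytes, and their SEs there were smaller in the joint fit than in hepatocytes alone. Cd74 had 2 and 0 counts in the vehicle hepatocytes. No cause of these differences was tested.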

How the results depend on the processing

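No call changed sign in any of 12 alternatives. The 63 calls against vehicle became 107 (39 down) in a fit of only the 4 libraries, 108 (40 down) with DESeq2 and 163 (89 up, 74 down) without a filter on low counts, which adds genes with very few counts; the cause of the other shifts was not tested. All 63 genes were still called with only the 4 libraries and without the filter. DESeq2 called 54 of them and gave no adjusted p for 8. Leaving out 1 of the 4 libraries gave 28 to 54 calls, 25 to 42 up and 3 to 16 down. GW3965 replicate 1 mattered most: without it 25 of the 63 remained. In every alternative that gave an adjusted p, 20 genes were called: Abca1, Abcg1, Lpcat3, Lpl, Cd5l, Scd1, Scd2, Srebf1, Fasn, Mid1ip1, Acsl5, Fads2, Insig1, Rnf145, Paqr8, Lgals3, Abcc2, Dusp6, Slc7a2 and Tsc22d2.

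The replicate numbers did not pair the samples (correlation of deviations -0.0075), and a replicate block gave 79 calls, 23 of them down. The contrast with T0901317 gave 0 calls in all 9 alternatives, with 566 to 800 genes at an unadjusted p below 0.05. The difference between cell types gave 260 to 383 genes when a hepatocyte library was left out, with 128 to 166 up and 132 to 217 down. The smaller depth of vehicle replicate 2 limits genes of a few CPM most.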
